A study of Mus musculus with 9 samples.

Results

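The interferon-induced GTPases described here are 10 genes of mouse cerebellum, 5 immunity-related GTPases (the Irg family: Igtp, Irgm1, Irgm2, Iigp1 and Ifi47) and 5 guanylate-binding proteins (the Gbp family: Gbp2, Gbp3, Gbp5, Gbp6 and Gbp7). They were chosen by name, as the rows of the expression files that carry these symbols. They are 10 of 53924 rows with a gene name, and all 10 were among the 16634 genes with enough counts to test. Bulk RNA sequencing of total RNA was done on 9 libraries in 3 groups of 3. PLX3AP mice were treated with PLX3397, which the labels give as microglia depletion, and then with 3-AP. 3AP mice received 3-AP without PLX3397, and control mice received saline. 3-AP is 3-acetylpyridine, a nicotinamide analogue that destroys the inferior olive and causes ataxia, and PLX3397 is an inhibitor of the CSF1 receptor, which microglia and related macrophages need to survive. Strain, age, sex, dose and time are not given in the labels. None of the 9 libraries came from mice given only PLX3397. An effect of PLX3397 itself and one on the response to 3-AP therefore cannot be told apart.

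Both families are large GTPases whose genes are switched on by interferons through JAK and STAT proteins and interferon regulatory factors. In mouse cells, effector Irg proteins such as Iigp1 load onto the vacuoles of intracellular parasites, while the regulatory proteins Irgm1, Irgm2 and Igtp (also called Irgm3) sit on the cell's own membranes and hold the effectors inactive there. Gbp proteins assemble on vacuoles and on bacteria, help to open them, and feed their contents to inflammasomes. In brain, microglia, endothelial cells and astrocytes can all express these genes after interferon.

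The promoter sequences of the members are described next. These families are known for induction by interferon and their genes are related, so shares among members are not counts of independent genes. RefSeq promoters (GRCm38.p6, 250 bases before to 50 after the start) were held for 8 of the 10 members. They were searched on both strands for GAAANNGAAA, the core of the interferon-stimulated response element that interferon regulatory factors bind. The repeat was found in 7 of these 8 members, against 3.99% of 27025 gene symbols, and Ifi47 was the member without it in this window. Each window below runs along its gene's strand with the repeat in capitals, and the Gbp genes carry it in the reverse orientation.
Igtp: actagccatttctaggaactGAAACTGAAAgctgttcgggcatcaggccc
Irgm2: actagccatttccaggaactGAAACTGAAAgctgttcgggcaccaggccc
Irgm1: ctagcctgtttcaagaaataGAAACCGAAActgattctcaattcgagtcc
Gbp2: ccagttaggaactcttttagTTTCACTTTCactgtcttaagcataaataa
Gbp3: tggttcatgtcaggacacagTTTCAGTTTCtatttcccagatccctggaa
Gbp5: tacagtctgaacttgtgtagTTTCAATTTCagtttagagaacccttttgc
Gbp7: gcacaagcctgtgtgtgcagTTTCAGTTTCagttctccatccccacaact
The Igtp window (chr11:58199502-58199551, plus strand) begins its repeat 34 bases before the start, and that of Irgm2 (chr11:58214893-58214942, plus strand) 64 bases before. These windows differ at 2 of 50 positions. Starts in this paragraph are those of the RefSeq promoters. For Irgm1, Irgm2, Gbp2, Gbp3 and Gbp5 they lie inside the GENCODE genes placed below, not at the first transcribed base. The start of Gbp7 lies just upstream of its GENCODE gene. The whole Irgm1 window lies inside the GENCODE gene. The Irgm1 window lies at chr11:48871415-48871464 on the minus strand, with the repeat 24 bases before the start and an overlapping copy 6 bases further upstream. The Gbp2 window lies at chr3:142620584-142620633, the Gbp3 window at chr3:142559979-142560028, the Gbp5 window at chr3:142496749-142496798 and the Gbp7 window at chr3:142530263-142530312, all on the plus strand. The repeat of Gbp5 was the farthest from its start, at 165 bases. In the other Gbp genes it lay 59 bases (Gbp2), 45 bases (Gbp3) and 53 bases (Gbp7) before the start. Gbp3 holds an overlapping repeat 39 bases before the same start, and its other RefSeq promoter holds 0. The palindrome TTCNNNGAA, the core of the gamma-activated site of interferon-gamma targets, was found in 4 of the 8 members (Igtp, Irgm2, Gbp5 and Gbp7), against 9.55% of gene symbols. A match is a description of the letters and does not show that a factor binds there.

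The members stand in few places in the genome (GENCODE M21, GRCm38). Gbp5, Gbp7, Gbp3 and Gbp2 lie in that order within 144.0 kb of chromosome 3 (142493978 to 142638008), and Gbp6 lies in a second cluster on chromosome 5 (105270702 to 105293698, minus strand). Irgm1 (48861968 to 48871683, minus strand), Ifi47 (49076587 to 49096974), Igtp (58199556 to 58207591) and Irgm2 (58199618 to 58222782) are on chromosome 11, and Iigp1 (60376027 to 60392634) is on chromosome 18. The annotated genes Igtp and Irgm2 overlap by 7974 bases on the same strand. Of the distinct 50-base stretches of their transcripts, 11.8% of those of Igtp also occur in Irgm2, 12.7% of those of Gbp7 occur in other genes, and 70.7% of those of Gbp6 do. For the other members the share was 0.31 to 7.77%. The deposited counts are estimates that divide such shared reads, so values of Gbp6 and Gbp7, and the split between Igtp and Irgm2, are less certain than the rest.

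Library totals were 18452256 to 22358447 estimated counts, and the members had 74 (Iigp1, control) to 1360 (Irgm1, 3AP) counts summed over the 3 libraries of a group. The tissue label was matched by its markers: those of Purkinje cells summed to 7476 to 7874 CPM in PLX3AP, 6895 to 7920 CPM in 3AP and 6505 to 8170 CPM in control libraries, where CPM is a count scaled to library size. Nothing in the labels ties a library to 1 mouse, so p-values measure only how much these samples vary, which may be technical. In bulk tissue, fewer cells of a type and less RNA per cell cannot be told apart.

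As a family the members were high in the 3AP libraries. Their summed level, in TPM, which the authors scaled to transcript length, was 33.9, 31.3 and 30.6 in PLX3AP replicates 1 to 3, 83.3, 83.7 and 72.7 in 3AP replicates 1 to 3, and 24.2, 25.3 and 20.9 in control replicates 1 to 3. No library of one group reached the range of another. The Irg members summed to 17.3 to 19.0 TPM in PLX3AP, 42.7 to 47.6 TPM in 3AP and 12.8 to 14.1 TPM in control libraries. The Gbp members summed to 12.9 to 14.9 TPM in PLX3AP, 30.01 to 37.1 TPM in 3AP and 8.14 to 11.5 TPM in control libraries.

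**Figure D1:**
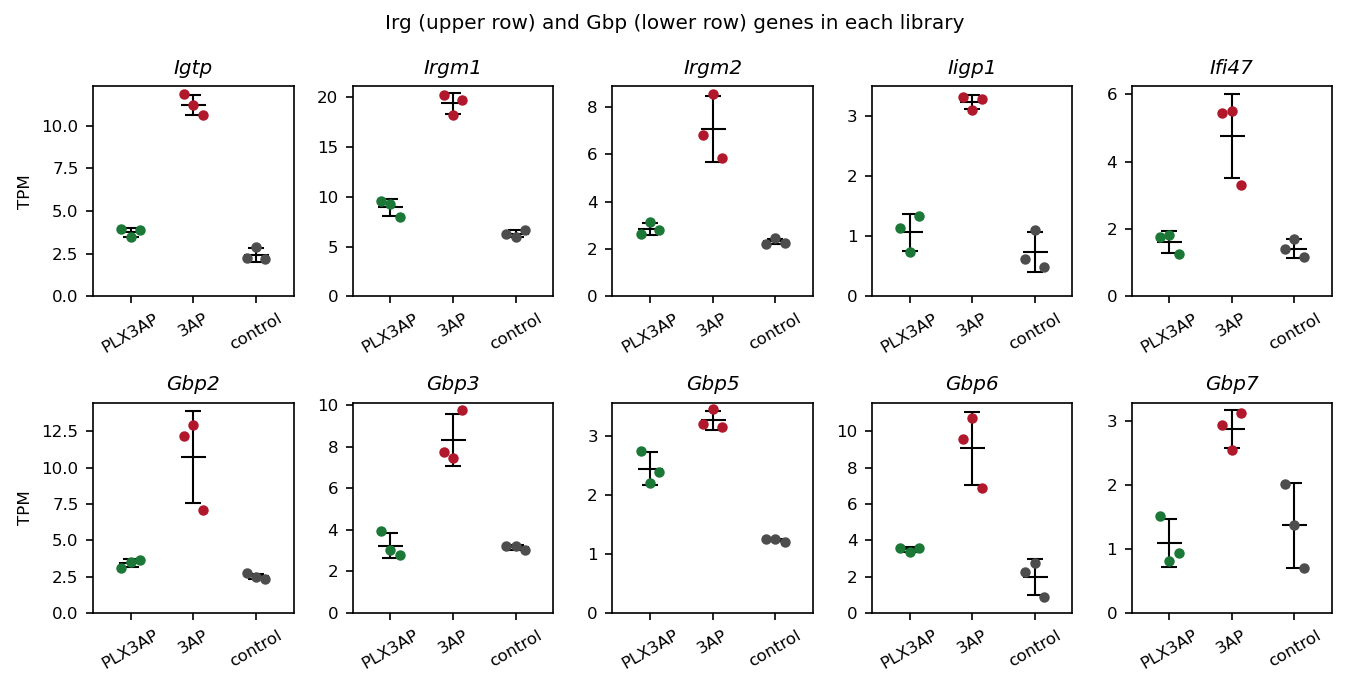
TPM of each member (vertical axes, from 0) in each library of the PLX3AP, 3AP and control groups, as points, with horizontal bars for the mean and SD of 3 libraries. In all 10 panels the 3 points of the 3AP group lie above every point of the other groups.

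Irgm1 was the highest member in every group, and its libraries lay above those of the next gene each time. It averaged 8.93 ± 0.829 TPM in PLX3AP, 19.3 ± 1.02 TPM in 3AP and 6.30 ± 0.376 TPM in control libraries (SD, n = 3 each). In 3AP libraries the order after it was Igtp, Gbp2, Gbp6, Gbp3, Irgm2, Ifi47, Gbp5, Iigp1 and Gbp7. There, only Irgm1 and Irgm2 were clear of the next gene in the order, while the libraries of all other neighbours overlapped. In control libraries the order was Irgm1, Gbp3, Gbp2, Igtp, Irgm2, Gbp6, Ifi47, Gbp7, Gbp5 and Iigp1, and Irgm1, Gbp3 and Gbp5 were clear of the next gene. In PLX3AP libraries it was Irgm1, Igtp, Gbp6, Gbp2, Gbp3, Irgm2, Gbp5, Ifi47, Gbp7 and Iigp1, with Irgm1 and Gbp5 clear of the next. Gbp5 stood near the end of the order in 3AP and control libraries, and its share of the members' summed TPM was 7.65 ± 0.562% in PLX3AP, 4.11 ± 0.252% in 3AP and 5.30 ± 0.434% in control libraries (SD, n = 3 each).

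The first question is how 3-AP alone moved these genes in the cerebellum. After 3-AP, 9 of the 10 members rose, 2.50-fold (Gbp3) to 4.42-fold (Igtp), and Gbp7 was the member not called. A gene is called at an adjusted p under 0.05 in edgeR's quasi-likelihood test, with Benjamini-Hochberg adjustment over all 16634 genes. Of all tested genes, 3.75% were called higher. In all 10 members the 3AP libraries lay above the control libraries without overlap, which held for 13.6% of tested genes. The median log2 fold change was 1.62 over the members and 0.001 over all tested genes.

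Among the regulatory Irg genes, Igtp, whose product sits on the endoplasmic reticulum and lipid droplets, had 11.8, 11.2 and 10.7 TPM in 3AP libraries and 2.23, 2.92 and 2.17 TPM in control libraries. The lowest 3AP library was thus well above the highest control library, and the log2 fold change was 2.14 (SE 0.168, edgeR adjusted p = 2.374e-05). Irgm1, whose loss in mice leads to failure of infection control, had 20.2, 18.2 and 19.7 TPM in 3AP libraries and 6.28, 5.94 and 6.69 TPM in control libraries, a log2 fold change of 1.56 (SE 0.135, edgeR adjusted p = 3.056e-05). The replicates of Irgm1 stood close together in both groups. Irgm2 had 6.82, 8.56 and 5.82 TPM in 3AP libraries and 2.23, 2.46 and 2.27 TPM in control libraries, with replicate 2 highest in both groups. Its log2 fold change was 1.54 (SE 0.163, edgeR adjusted p = 0.000125). Counted together, as 1 feature in which the division of reads between them plays no part, Igtp and Irgm2 rose by 1.79 on the log2 scale (SE 0.122, edgeR adjusted p = 8.611e-06).

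The effector Irg genes rose too. Iigp1, which oligomerises on the parasite's vacuole, had 3.31, 3.09 and 3.28 TPM in 3AP libraries and 0.62, 1.11 and 0.49 TPM in control libraries. Its 3AP libraries were nearly level while its control libraries were spread, with replicate 2 the highest, and its log2 fold change was 2.00 (SE 0.309, edgeR adjusted p = 0.001962). Ifi47 had 5.44, 5.51 and 3.31 TPM in 3AP libraries and 1.40, 1.70 and 1.16 TPM in control libraries. Replicate 3 was the lowest of each group for Ifi47, and the groups did not overlap; the log2 fold change was 1.67 (SE 0.286, edgeR adjusted p = 0.003879).

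Among the Gbp genes, Gbp2, which coats vacuoles of Toxoplasma in mouse cells, had 12.2, 12.9 and 7.11 TPM in 3AP libraries and 2.72, 2.49 and 2.36 TPM in control libraries. Here replicate 3 of 3AP was apart from the other 3AP libraries but still above every control library, and the log2 fold change was 2.03 (SE 0.209, edgeR adjusted p = 9.957e-05). Gbp3 had 7.74, 7.45 and 9.76 TPM in 3AP libraries and 3.21, 3.23 and 3.01 TPM in control libraries, with replicate 3 the highest 3AP library. Its log2 fold change was 1.32 (SE 0.190, edgeR adjusted p = 0.001124). Gbp5, linked in mouse macrophages to the NLRP3 inflammasome, had 3.2, 3.46 and 3.16 TPM in 3AP libraries and 1.25, 1.25 and 1.21 TPM in control libraries. Its replicates were the tightest of the Gbp genes, and it rose by 1.35 on the log2 scale (SE 0.185, edgeR adjusted p = 0.0007933).

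Gbp6 had 9.60, 10.8 and 6.86 TPM in 3AP libraries and 2.28, 2.77 and 0.86 TPM in control libraries, with replicate 3 low in both groups, and a log2 fold change of 2.10 (SE 0.350, edgeR adjusted p = 0.007532). Gbp7, which in mouse macrophages takes part in assembly of the NADPH oxidase on phagosomes, had 2.94, 2.55 and 3.12 TPM in 3AP libraries and 2.02, 1.38 and 0.70 TPM in control libraries. Its control libraries were spread, with replicate 1 near the 3AP libraries and replicate 3 low, and its estimated log2 difference of 0.97 had a 95% interval of 0.25 to 1.69 (edgeR adjusted p = 0.14). PLX3AP replicate 1 is in neither group compared but enters the shared fit. Without it, and with filter, scaling and adjustment redone, the adjusted p of Gbp7 in edgeR was 0.03758. Over its 18 alternatives the adjusted p ran from 0.03758 to 0.3163.

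Most of the sequence that Gbp6 shares (65% of its stretches) is with Gm43302, an overlapping predicted gene, and it shares some with Gbp10, its neighbour on chromosome 5. Estimated counts of Gbp6 were 130, 159 and 147 in PLX3AP libraries, 387, 410 and 271 in 3AP libraries, and 82.4, 124 and 37.5 in control libraries. Those of Gm43302 were 43.5, 29.2 and 17.3 in PLX3AP libraries, 90.0, 54.3 and 163 in 3AP libraries, and 50, 16.7 and 58.1 in control libraries. In the 3AP and control groups, Gm43302 was thus highest in replicate 3, the library where Gbp6 was lowest. Summed with Gbp10, the genes gave 8.98 ± 0.910 CPM in PLX3AP, 23.7 ± 1.32 CPM in 3AP and 6.33 ± 1.06 CPM in control libraries (SD, n = 3 each). The sum rose in 3AP against control by 1.91 on the log2 scale (SE 0.140, edgeR adjusted p = 1.169e-05), with a smaller SE than that of Gbp6 alone. The sum was chosen after the values had been seen.

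**Figure D2:**
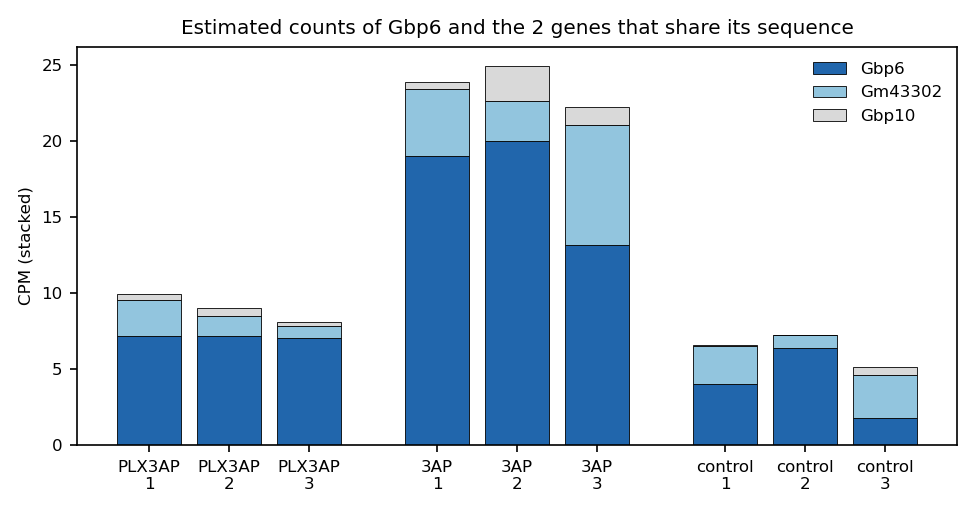
Stacked CPM (vertical axis, from 0) of Gbp6, Gm43302 and Gbp10 in each of the 9 libraries. The split between the genes varies within each group, while the summed height stays near 8.98 CPM in PLX3AP, 23.7 CPM in 3AP and 6.33 CPM in control libraries.

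One 3AP library stood apart for part of the family. Replicate 3 of 3AP was the lowest 3AP library for 6 members, and its CPM was 56.6% of the mean of the other 3AP libraries for Gbp2, 60.1% for Ifi47, 67.5% for Gbp6 and 75.6% for Irgm2, but 91.8% for Igtp and 92.6% for Gbp5. It was the highest for Gbp3 (109%) and Gbp7 (117%). Neutrophil and monocyte markers, 8 genes such as S100a9 and Plac8, were also lowest in replicate 3. They summed to 24.7, 18.4 and 9.65 CPM in 3AP replicates 1, 2 and 3. So were endothelial markers (287, 285 and 258 CPM) and astrocyte markers (7082, 6782 and 5486 CPM). Border-associated macrophage markers (16.1, 16.4 and 19.7 CPM) were highest there, and microglial markers (340, 282 and 285 CPM) were lowest in replicate 2. The part of these cells in the result was not tested. Without replicate 3 of 3AP, 9 members were again called in edgeR, with log2 fold changes of 2.26 for Gbp2, 1.88 for Ifi47 and 2.27 for Gbp6.

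The second question is how the members stood when PLX3397 was given before 3-AP, against 3-AP without it. With PLX3397, 7 of the 10 members fell, 2.14-fold (Irgm1) to 3.13-fold (Gbp2), all 5 Irg genes with Gbp2 and Gbp3. Of all tested genes, 3.16% were called lower in edgeR. The PLX3AP libraries lay below the 3AP libraries without overlap in all 10 members, against 9.22% of tested genes. The median log2 fold change was -1.33 over the members and -0.008 over all tested genes. This comparison shares its 3AP libraries with the one above, so the values are set side by side only.

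Igtp had 3.93, 3.46 and 3.91 TPM in PLX3AP libraries, against 11.8, 11.2 and 10.7 TPM in 3AP libraries, and fell by 1.56 on the log2 scale (SE 0.162, edgeR adjusted p = 0.0001093). Irgm1 had 9.52, 9.28 and 7.98 TPM in PLX3AP libraries, against 20.2, 18.2 and 19.7 TPM in 3AP libraries. Its log2 fold change was -1.10 (SE 0.132, edgeR adjusted p = 0.0003221), the smallest of the called members, and its PLX3AP replicates were close together. Irgm2 had 2.64, 3.13 and 2.79 TPM in PLX3AP libraries, against 6.82, 8.56 and 5.82 TPM in 3AP libraries, a log2 fold change of -1.29 (SE 0.161, edgeR adjusted p = 0.0003955). In these regulatory genes the highest PLX3AP library was thus well below the lowest 3AP library.

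Iigp1 had 1.14, 0.73 and 1.33 TPM in PLX3AP libraries, against 3.31, 3.09 and 3.28 TPM in 3AP libraries, and a log2 fold change of -1.55 (SE 0.300, edgeR adjusted p = 0.009074). PLX3AP replicate 2 was its lowest library of the group, and without it the adjusted p in edgeR was 0.05205, the highest of a range of 0.0001601 to 0.05205 over 18 alternatives. Ifi47 had 1.77, 1.82 and 1.25 TPM in PLX3AP libraries, against 5.44, 5.51 and 3.31 TPM in 3AP libraries, a log2 fold change of -1.52 (SE 0.283, edgeR adjusted p = 0.00701). The lowest 3AP library of Ifi47 was nearer to the PLX3AP libraries than the other 3AP libraries were.

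Gbp2 had 3.10, 3.50 and 3.62 TPM in PLX3AP libraries, against 12.2, 12.9 and 7.11 TPM in 3AP libraries, the largest fall of the family at -1.65 on the log2 scale (SE 0.204, edgeR adjusted p = 0.0003736). Gbp3 had 3.92, 3.03 and 2.77 TPM in PLX3AP libraries, against 7.74, 7.45 and 9.76 TPM in 3AP libraries, a log2 fold change of -1.38 (SE 0.190, edgeR adjusted p = 0.0008753). Both genes were clear of overlap, Gbp3 with its highest PLX3AP library in replicate 1.

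Gbp5 had 2.75, 2.20 and 2.39 TPM in PLX3AP libraries, against 3.2, 3.46 and 3.16 TPM in 3AP libraries. The groups did not overlap, but they were closer than in any other member: the estimated log2 difference was -0.43, with a 95% interval of -0.81 to -0.04 (edgeR adjusted p = 0.3298), and it was not called under any of 18 alternatives. Whether Gbp5 differed from the other members in this comparison was not tested.

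Gbp6 had 3.6, 3.35 and 3.59 TPM in PLX3AP libraries, against 9.60, 10.8 and 6.86 TPM in 3AP libraries, all well apart. Its log2 difference was -1.29 (95% interval -2.04 to -0.54, edgeR adjusted p = 0.08123), and 7 of 18 alternatives called it lower. Over all 18 the adjusted p ran from 6.198e-05, which is that of the sum given below, to 0.2932. Leaving out control replicate 3, which is in neither group compared, gave 0.002165 in edgeR, with filter, scaling and adjustment redone. The sum of Gbp6, Gm43302 and Gbp10 fell by 1.40 on the log2 scale (SE 0.137, edgeR adjusted p = 6.198e-05). Gbp7 had 1.52, 0.81 and 0.94 TPM in PLX3AP libraries, against 2.94, 2.55 and 3.12 TPM in 3AP libraries, with replicate 1 the highest of PLX3AP. Its log2 difference was -1.29 (95% interval -2.02 to -0.57, edgeR adjusted p = 0.05972). It too was called lower in 7 of 18 alternatives. Over all 18 the adjusted p ran from 0.005001, without PLX3AP replicate 1, to 0.2525.

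**Figure D3:**
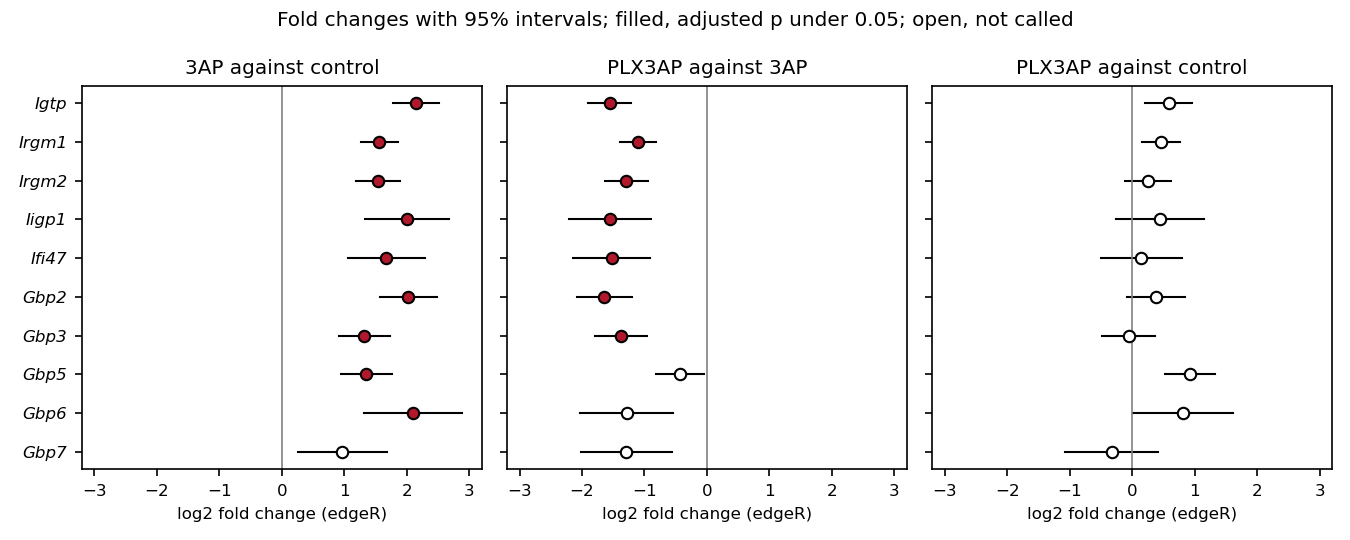
Log2 fold change from edgeR (horizontal axes) of each member, with its 95% interval, in the comparison named above each panel. Filled points were called: 9 higher in 3AP than in control, 7 lower in PLX3AP than in 3AP, and 0 between PLX3AP and control.

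The last comparison, of PLX3AP with control, asks how far the members stood from saline levels when 3-AP followed PLX3397. None of the 10 members was called in edgeR, while 0.12% of tested genes were called in either direction. DESeq2 called 1 of the 10, Gbp5. At an unadjusted p under 0.05, 4 members were higher (Igtp, Irgm1, Gbp5 and Gbp6), against 4.59% of tested genes. The estimate was above 0 for 8 members (50.4% of tested genes), and the median log2 fold change was 0.41 over the members and 0.001 over all genes. In 6 members (Igtp, Irgm1, Irgm2, Gbp2, Gbp5 and Gbp6) the PLX3AP libraries lay above the control libraries without overlap, against 7.86% of tested genes.

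Gbp5 had the largest estimate, with 2.75, 2.20 and 2.39 TPM in PLX3AP libraries and 1.25, 1.25 and 1.21 TPM in control libraries. The lowest PLX3AP library was well above the highest control library. The log2 difference was 0.93, with a 95% interval of 0.52 to 1.33 (edgeR adjusted p = 0.1097). In DESeq2 the adjusted p was 0.02905, the lowest of a range of 0.02905 to 0.3745 over 18 alternatives. Igtp had 3.93, 3.46 and 3.91 TPM in PLX3AP libraries and 2.23, 2.92 and 2.17 TPM in control libraries, a log2 difference of 0.58 with a 95% interval of 0.21 to 0.96 (edgeR adjusted p = 0.3077). Irgm1 had a log2 difference of 0.46 (95% interval 0.17 to 0.76, edgeR adjusted p = 0.3088), with 7.98 TPM in its lowest PLX3AP library and 6.69 TPM in its highest control library.

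Gbp6 had a log2 difference of 0.81 (95% interval 0.01 to 1.61), and its sum with Gm43302 and Gbp10 one of 0.50 (SE 0.143, edgeR adjusted p = 0.2945). The estimates of Iigp1 (0.44), Gbp2 (0.38), Irgm2 (0.25) and Ifi47 (0.15) had intervals that held 0, the widest reaching 1.15 for Iigp1. Gbp3 and Gbp7 were the members with estimates under 0. Gbp3 had a log2 difference of -0.05 (95% interval -0.48 to 0.37), whose sign turned under 4 of 18 alternatives, and Gbp7 one of -0.33 (95% interval -1.07 to 0.42). Between 7 and 153 genes of all tested were called as each library was left out in turn, with 153 without PLX3AP replicate 1, but the count of members called stayed at 0.

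Some of the closest relatives of the members changed as well. Of 12 further Irg-like genes in the files, 8 were tested: 2 rose in 3AP against control (Tgtp1 and Tgtp2, neighbours of Ifi47 on chromosome 11), with a median log2 fold change of 1.61, and 3 fell in PLX3AP against 3AP (Tgtp1, Tgtp2 and 9930111J21Rik2), with a median of -1.31. Tgtp1 averaged 2.13 ± 0.939 CPM in PLX3AP, 7.85 ± 1.59 CPM in 3AP and 1.49 ± 0.454 CPM in control libraries (SD, n = 3 each). Of 6 further Gbp genes, 3 were tested, and Gbp4 and Gbp9 rose in 3AP against control and fell in PLX3AP against 3AP. Gbp4 averaged 1.60 ± 0.654 CPM in PLX3AP, 9.38 ± 1.02 CPM in 3AP and 1.40 ± 0.324 CPM in control libraries (SD, n = 3 each), a log2 fold change of 2.75 in 3AP against control (edgeR adjusted p = 0.0001323). Gbp2b had 0 counts in all 9 libraries. Irgq, a divergent Irg gene, was the most abundant relative at 83.9 ± 7.58 CPM in PLX3AP, 78.3 ± 1.35 CPM in 3AP and 85.2 ± 9.67 CPM in control libraries (SD, n = 3 each), and it was not called. The other tested Irg relatives, Gm12250, Gm5431, Gm4951 and 9930111J21Rik1, averaged under 1 CPM in every group and were not called. Gbp10 was not called either, and Gm12185, Gm4841, F830016B08Rik, Irgc1, Gbp8 and Gbp11 had too few counts to test.

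Of the other large GTPases that interferon induces, 4 of 5 rose in 3AP against control (Mx1, Mx2, Gvin1 and Gvin3) and 2 of 5 fell in PLX3AP against 3AP (Mx1 and Gvin3). Mx1, a factor that restricts influenza virus, averaged 0.143 ± 0.210 CPM in PLX3AP, 1.22 ± 0.502 CPM in 3AP and 0.131 ± 0.0737 CPM in control libraries (SD, n = 3 each). Medians over this list were 1.63 in 3AP against control and -1.09 in PLX3AP against 3AP on the log2 scale.

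The interferon genes that were looked up had no counts, and other interferon genes were not looked up. Interferon-gamma (Ifng), interferon-beta (Ifnb1) and 8 further interferon genes (Ifna1, Ifna2, Ifna4, Ifna5, Ifne, Ifnk, Ifnl2 and Ifnl3) had 0 counts in all 9 libraries. Pooled over the 184369359 counts of all libraries, a count of 0 allows up to 0.0163 CPM. For the libraries of a single group, such as 3AP, the bound is higher and was not computed. Among cytokines that induce interferon-gamma, Il12a had 16 counts in PLX3AP, 21 in 3AP and 4 in control libraries, too few to test, and Il12b and Il27 had 2 and 1 counts in all. Il15 and Il18, which act on the lymphocytes that make interferon-gamma, were the only genes of this list of 15 to be tested, and neither was called in any comparison.

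Of 15 interferon receptor and signalling genes, 5 rose in 3AP against control. They were Usp18, which damps type I interferon signalling at the receptor (log2 fold change 2.51), Irf9 (1.45), Irf8 (1.22), Irf1 (0.91) and Stat2 (0.40). Irf9 and Stat2 belong to the complex that binds the response element shown above, and Irf1 and Irf8 also bind such sites. Irf9 averaged 10.6 ± 0.926 CPM in PLX3AP, 22.1 ± 1.41 CPM in 3AP and 8.11 ± 1.26 CPM in control libraries (SD, n = 3 each). In PLX3AP against 3AP, Usp18, Irf8 and Irf9 fell. Neither the receptor genes (Ifngr1, Ifngr2, Ifnar1, Ifnar2) nor the kinases (Jak1, Jak2, Tyk2) nor Irf2, Socs1 and Socs3 were called in any comparison. Socs3, an inhibitor of cytokine signalling, came closest, at 1.15 ± 0.482 CPM in PLX3AP, 4.16 ± 0.452 CPM in 3AP and 1.06 ± 0.926 CPM in control libraries (SD, n = 3 each; edgeR adjusted p = 0.05313 in 3AP against control), and the median of the list was 0.31 in 3AP against control and -0.25 in PLX3AP against 3AP on the log2 scale.

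Other interferon targets gave the scale of the response. Of 13 tested genes associated with interferon-gamma, 9 rose in 3AP against control and 7 fell in PLX3AP against 3AP, with median log2 fold changes of 1.47 and -1.03. The chemokine Cxcl10 averaged 0.975 ± 0.502 CPM in PLX3AP, 4.03 ± 1.93 CPM in 3AP and 0.165 ± 0.122 CPM in control libraries, and the immunoproteasome subunit Psmb8 2.65 ± 0.224 CPM in PLX3AP, 10.5 ± 1.47 CPM in 3AP and 1.82 ± 0.448 CPM in control libraries (SD, n = 3 each). Cxcl9, a chemokine that interferon-gamma induces, was near 0 outside the 3AP group, at 0.0342 CPM in PLX3AP, 0.814 CPM in 3AP and 0.049 CPM in control libraries on average. Of 19 tested antiviral effectors, 18 rose in 3AP against control and 17 fell in PLX3AP against 3AP, with medians of 2.37 and -1.52, led by Zbp1, Oasl1 and Irf7. Irf7, a factor that amplifies interferon responses, was the gene of these lists called in PLX3AP against control, where its log2 fold change was 0.97 (SE 0.159, edgeR adjusted p = 0.04292).

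Partners of the members in their known functions gave mixed values. None of 14 genes of ATG8 conjugation and autophagy, which Irg and Gbp proteins need to find vacuoles in mouse cells, was called in any comparison in edgeR. At an unadjusted p under 0.05 it was 1 gene in 3AP against control and 0 in the other comparisons. Of 6 tested inflammasome genes, Pycard, Gsdmd and Il1b rose in 3AP against control and fell in PLX3AP against 3AP. Pycard, the inflammasome adaptor, averaged 1.40 ± 0.402 CPM in PLX3AP, 6.03 ± 1.29 CPM in 3AP and 1.12 ± 0.437 CPM in control libraries (SD, n = 3 each).

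Cell type markers moved with the members in part. Microglial markers, 10 genes such as Csf1r and C1qa, summed to 87.5 to 135 CPM in PLX3AP, 282 to 340 CPM in 3AP and 148 to 161 CPM in control libraries, with 6 of 10 called higher in 3AP against control and 7 of 10 lower in PLX3AP against 3AP. P2ry12 was the only microglial marker with an estimate under 0 in 3AP against control (-0.47), and neither it nor Csf1r was called there. In PLX3AP against control all 10 microglial markers had estimates under 0 (median -0.65). There, 7 had an unadjusted p under 0.05 and 0 were called in edgeR, while the members' median was 0.41. Markers of border-associated macrophages, 5 genes such as Mrc1 and Cd163, summed to 0.439 to 1.86 CPM in PLX3AP, 16.1 to 19.7 CPM in 3AP and 12.1 to 12.7 CPM in control libraries, with 1 of 5 (F13a1) called higher in 3AP against control (list median 0.05), 5 of 5 lower in PLX3AP against 3AP and 4 of 5 lower in PLX3AP against control. Endothelial markers, 8 genes such as Pecam1, were highest in 3AP libraries. They summed to 183 to 199 CPM in PLX3AP, 258 to 287 CPM in 3AP and 174 to 192 CPM in control libraries. In all, 5 of 8 were called higher in 3AP against control and 4 of 8 lower in PLX3AP against 3AP. Flt1 was the only one with estimates the other way in these comparisons (-0.15 and 0.13), and it was not called.

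Neutrophil and monocyte markers summed to 1.63 to 2.20 CPM in PLX3AP, 9.65 to 24.7 CPM in 3AP and 1.18 to 3.997 CPM in control libraries, with 4 of 6 tested called higher in 3AP against control and 5 of 6 lower in PLX3AP against 3AP. Markers of T and natural killer cells, sources of interferon-gamma, were low: 9 of 12 had under 20 counts over all libraries, Cd3g and Cd8a had 0 in the 3AP libraries, and the list summed to 2.91 to 3.53 CPM in PLX3AP, 3.65 to 4.12 CPM in 3AP and 2.00 to 2.36 CPM in control libraries. Trac, the only one tested and most of that sum, averaged 2.65 ± 0.632 CPM in PLX3AP, 2.91 ± 0.277 CPM in 3AP and 1.66 ± 0.208 CPM in control libraries (SD, n = 3 each). Its 3AP and its PLX3AP libraries lay above the control libraries without overlap, but it was not called (log2 difference of 0.81 in 3AP against control, edgeR adjusted p = 0.0974). Cd3e summed to 6 counts in PLX3AP, 17 in 3AP and 5 in control libraries. Astrocyte markers summed to 5487 to 6141 CPM in PLX3AP, 5486 to 7082 CPM in 3AP and 5614 to 5877 CPM in control libraries, with Gfap called higher and Aqp4 called lower in 3AP against control (list median 0.05 on the log2 scale), and Gfap called lower in PLX3AP against 3AP. The part of these cell types in the members' values was not tested.

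**Figure D4:**
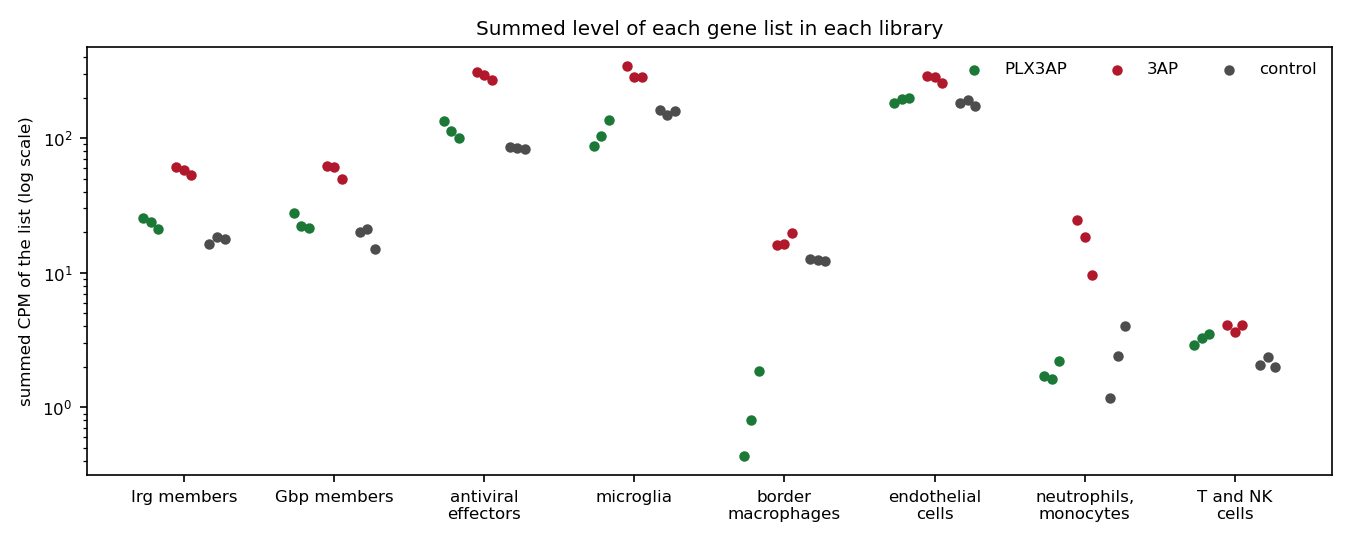
Summed CPM (vertical axis, log scale) of the Irg members, the Gbp members, antiviral effectors and 5 marker lists in each library of the PLX3AP, 3AP and control groups. Against control, the PLX3AP points lie higher for the Irg members, the Gbp members, antiviral effectors and markers of T and natural killer cells. They lie lower for microglial and border macrophage markers.

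The genes outside the family closest to it in pattern were found by the mean absolute difference, over the 9 libraries, between a gene's log2 CPM centred on its control mean and the median of the members. Among 14819 genes with a mean CPM of at least 1, they were Cldn5, a tight junction protein (0.091), Parp3 (0.108), Itih3 (0.111), Irf9 (0.118) and Clec14a (0.118). The members themselves lay at 0.116 (Irgm2) to 0.542 (Gbp6) from their own median, with Irgm1 at 0.123, Gbp5 at 0.265 and Gbp7 at 0.518. This distance includes the scatter of single libraries, which is wider at low counts and where shared reads are divided. It therefore does not show that Cldn5 follows the pattern better than the members do. Cldn5 averaged 31.1 ± 1.51 CPM in PLX3AP, 63.8 ± 7.68 CPM in 3AP and 25.0 ± 0.642 CPM in control libraries (SD, n = 3 each). Clec14a averaged 5.27 ± 1.09 CPM in PLX3AP, 10.01 ± 0.410 CPM in 3AP and 3.53 ± 0.183 CPM in control libraries (SD, n = 3 each).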

How the data were processed

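RNA of 9 cerebellum libraries was used, each with a deposited file of counts and one of TPM. Fastp, HISAT2, StringTie and RSEM and the mm10 build are named in the submitters' processing notes; versions, annotation release and strandedness: not given in the sources used here. Counts as deposited are expected counts, estimated per gene by the authors without normalisation. TPM as deposited were scaled by the authors to transcript length and to the library total. Rows without a gene name (1884 of 55808) held 0.526 to 0.660% of each library and were not used. Expected counts were rounded and fitted with edgeR 4.0.16 (R 4.3.3), using filterByExpr, TMM (factors 0.986 to 1.02), and a robust quasi-likelihood fit with 1 term per group over all 9 libraries, checked on simulated data. P-values are two-sided, adjusted by Benjamini-Hochberg over 16634 genes, and called under 0.05. CPM, log2 fold changes and intervals were computed here; the intervals rest on the fit. No libraries of 1 group matched within sampling noise (chi-square of 4.93 to 29.4 for each degree of freedom). Alternatives were DESeq2 1.42.0, limma 3.58.1 on log2(TPM + 1) and log2(TPM + 0.1), other scaling and filters, a replicate block, the 2 groups compared alone, leaving out each library, and, added after seeing the data, summed overlapping genes. Depth limits the low members, and floors (3 counts over all libraries) cover counting error only. The members and lists were chosen with earlier results of these data known, and 1 gene of the signalling list is not reported here. By rule, all members were named, up to 3 called genes of each list with the largest change in 3AP against control, the genes of the ligand, receptor and relative lists, and the 5 genes of most similar pattern; marker genes, and called genes where a list had few, were named after their values were seen. Shared sequence was counted in GENCODE M21 transcripts as distinct 50-base stretches, and promoters were taken from RefSeq (GRCm38.p6).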

Additional observations from a re-analysis of the deposited data

How the results depend on the processing

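Over 179 refits of a member under an alternative in each comparison, calls and directions held in 178 for 3AP against control, in 164 for PLX3AP against 3AP, and in 174 for PLX3AP against control. The count of members called in PLX3AP against 3AP and in 3AP against control stayed within 6 to 9 and 9 to 10 as each library was left out, and at 0 in PLX3AP against control; DESeq2 called 1 there, Gbp5. Gbp3 in PLX3AP against control turned from below 0 to 0.022 with log2(TPM + 1) and 0.025 with log2(TPM + 0.1), and ran from -0.33 to 0.089 as each library was left out, above 0 without PLX3AP replicate 2 or 3; the cause was not tested. Counts of all genes called varied more. Leaving out each library gave 466 to 991 in 3AP against control, 401 to 715 in PLX3AP against 3AP and 7 to 153 in PLX3AP against control. In PLX3AP against control, DESeq2 called 105, no filter on low counts 71, and limma on log2(TPM + 1) 9, against 20. With the replicate number as a block, 580, 504 and 10 genes and 9, 9 and 0 members were called. Deviations of same-numbered libraries correlated at -0.203 to 0.0931, none over 0.1. No pairing by number was seen, but with 3 libraries a group these values cannot exclude a weak one. With overlapping and near-copy genes summed, 8, 8 and 0 of the then 9 features were called. With 3 libraries a group and members such as Iigp1 at 74 counts over the control group, small differences were not detectable at this depth.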
